A study of Musculus with 2 samples.

Results

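The genes described here are 36 genes of the cell division cycle, taken as a list of symbols, out of 32285 genes listed in each library; every one of the 36 symbols belonged to 1 gene identifier. They were counted in cells of the stromal vascular fraction (SVF) of mouse subcutaneous white fat (sWAT), which is what remains after collagenase digestion once the floating mature fat cells are removed and red cells are lysed. 1 droplet library came from mice of genotype WT (control) and 1 from mice with an LPCAT3 knockout (LPCAT3-AKO). LPCAT3 is an enzyme that places polyunsaturated fatty acids into phospholipids. The extraction notes give an age of 5 weeks for both libraries and the series text 2 months; both groups were fed CD per the series text. The labels used here name neither the promoter of a Cre nor the number of mice in a library. Because there was 1 library per genotype, a difference between the libraries has no replicate check, no p-value is given, and every interval below covers counting error only.

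A dividing cell licenses its replication origins in G1, copies its DNA in S phase and separates the copies in mitosis at the end of G2. The genes of DNA replication are switched on by E2F factors at the entry into S phase, and those of mitosis later by the factors MuvB, B-MYB and FOXM1, so that each set of transcripts marks a stretch of the cycle. In fat tissue most stromal and immune cells are at rest, while resident macrophages can renew themselves by local division.

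The list was split into 13 S members (replication and nucleotide supply), 22 G2M members (mitosis) and Stmn1, which was in neither. A cell was called in a phase when 4 or more distinct members of that phase's list had a UMI (a counted RNA molecule) after every cell had been thinned to 3000 UMIs; cells with fewer were left out. A cell past both limits went to the list of which it showed the larger share, and to G2M if the shares were equal. Cell types were gated on marker genes, and the types compared are fibroblasts, macrophages, monocytes, dendritic, endothelial, epithelial and lymphoid cells. The targeted gene Lpcat3 was not lower in the library labelled LPCAT3-AKO, at 26.7 (25.7 to 27.8) CPM in control and 30.6 (29.5 to 31.7) CPM there, where CPM are UMIs of a gene or list per 1000000 UMIs. The labels do not say which part of the gene was deleted or in which cells, and mature fat cells had been removed, so these counts do not check the label; LPCAT3-AKO stands below for the library so labelled. After filters on genes, mitochondrial share and doublets, 11191 control and 10576 LPCAT3-AKO cells were kept, with medians of 8078 and 8599.5 UMIs; 36 barcodes were shared by the kept cells of the libraries. The gate gave 5600 and 5746 fibroblasts (control first, here and below), 3815 and 2727 macrophages, 65 and 167 monocytes, 363 and 322 dendritic cells, 149 and 168 endothelial, 108 and 248 epithelial, and 219 and 238 lymphoid cells. Fibroblasts held all 12 of their markers in 20% or more of cells in both libraries, at 39496 and 44197 CPM summed, against 217 and 226 CPM for the macrophage list; macrophages likewise held 12 of 12.

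Across all kept cells, 322 of 9857 (3.27%) were called in S or G2M in the control library and 566 of 9574 (5.91%) in LPCAT3-AKO, a ratio of 1.81 (95% interval 1.58 to 2.08). The gap was wider for the G2M members: the G2M share was 2.43 times as high (1.99 to 2.98), and the S share 1.34 times (1.10 to 1.63). Macrophages made up 48.4% and 50.4% of the called cells, more than any other type in either library. Fibroblasts, the most numerous type, made up 4.97% and 9.01%.

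**Figure D1:**
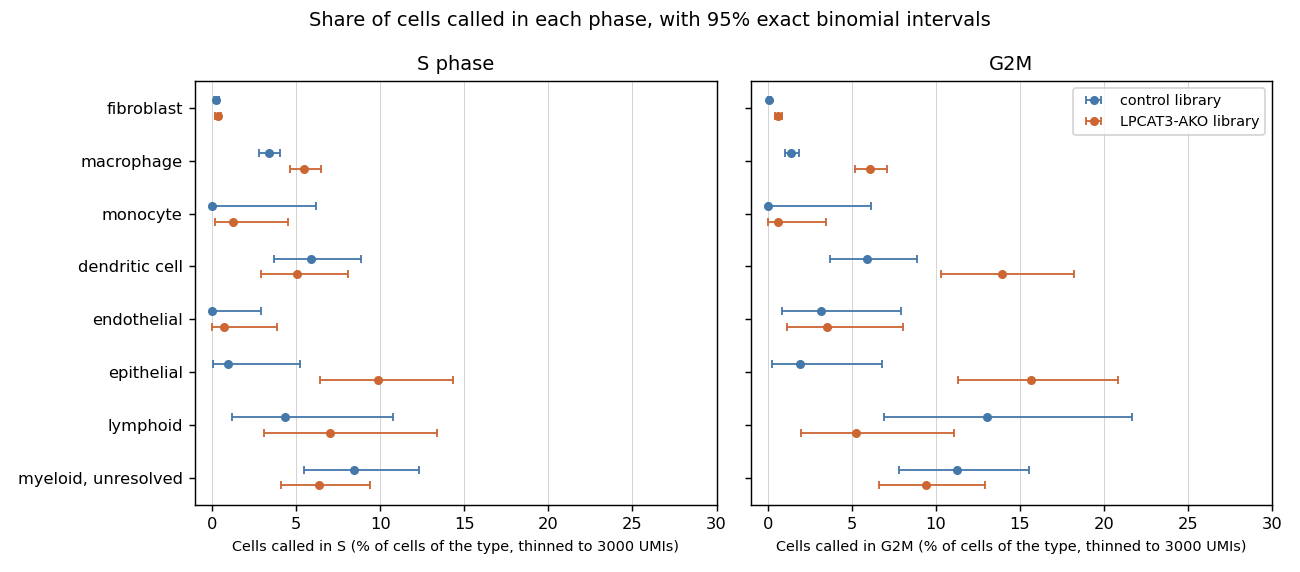
Percent of cells called in S (left) and in G2M (right) in each cell type after thinning to 3000 UMIs, with the control and LPCAT3-AKO libraries side by side and exact binomial 95% intervals (counting error only, 1 library per group). Macrophages stood at 1.41% and 6.1% in G2M, and in lymphoid cells the point of control in G2M lies above that of LPCAT3-AKO, with intervals that overlap.

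In macrophages 156 of 3254 cells (4.79%) were called in S or G2M in control and 285 of 2458 (11.6%) in LPCAT3-AKO, a ratio of 2.42 (1.98 to 2.96). The S share was 3.38% and 5.49%, a ratio of 1.62 (1.25 to 2.11), and the G2M share 1.41% and 6.1%, a ratio of 4.32 (3.08 to 6.15). Of the called macrophages, 29.5% (22.5 to 37.3) were in G2M in control and 52.6% (46.7 to 58.6) in LPCAT3-AKO. Of the 156 and 285 called macrophages, 42 and 114 were past both limits, so this split rests in part on the rule for such cells. Without thinning the counts were 394 of 3815 and 573 of 2727, a ratio of 2.03. The limit cut through a range of cells: 126 and 100 macrophages had 1 member fewer than the limit and 46 and 47 were just at it, while 53 and 169 had 8 or more members of 1 list. The size of the ratio depended on how a dividing cell was defined. On a log2 scale the ratio was 1.27 here, 0.85 with 3 members, 1.76 with 6, 1.69 and 0.88 after thinning to 2000 and 5000 UMIs, and above 0 in all 14 alternatives. When the call was made from further S and G2M genes outside the 36, 753 of 3254 and 681 of 2458 macrophages passed and the log2 ratio was 0.26; with scanpy's phase scores 2022 of 3815 and 1524 of 2727 passed, for 0.076.

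Few fibroblasts were called in either library. In all 16 of 5252 (0.305%) were called in control and 51 of 5447 (0.936%) in LPCAT3-AKO, a ratio of 3.07 (1.72 to 5.77). S cells numbered 12 and 18, a ratio of 1.45 (0.659 to 3.29) whose interval includes 1, and G2M cells 4 and 33, a ratio of 7.95 (2.83 to 30.9). In 59.1% and 57.8% of the thinned fibroblasts no member had a UMI at all. Unthinned, 135 of 5600 and 173 of 5746 fibroblasts passed, a ratio of 1.25 (0.991 to 1.58), with 9 and 47 in G2M. With the limit at 3 members the log2 ratio was 0.65 in place of 1.62, from the further genes 0.030 and from scanpy's scores 0.13. Called fibroblasts carried more macrophage marker RNA than the other fibroblasts, 547 against 209 CPM in control and 414 against 217 CPM in LPCAT3-AKO. They carried less fibroblast marker RNA, 26550 against 39633 and 37697 against 44406 CPM. Retnla, at 17738 CPM in uncalled control macrophages, stood at 4612 CPM in the 12 control S fibroblasts, against 174 CPM in uncalled ones. In LPCAT3-AKO it stood at 818 CPM in S, 376 in G2M and 190 in uncalled fibroblasts. Lyz1 (372 against 11.4 CPM), Ccr2 (115 against 4.32 CPM) and Csf1r (63.0 against 8.86 CPM) were also higher in the control S fibroblasts. Lyve1 (5.73 against 11.9 CPM) and Folr2 (11.5 against 13.6 CPM) were not, but rested on 1 and 2 UMIs in these 12 cells. Their intervals reached 31.9 and 41.4 CPM, so the direction of this pair cannot be read. The part of mixed droplets in the call was not tested.

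Dendritic cells, which take up antigen and present it to T cells, were called in S or G2M in 42 of 356 cases (11.8%) and 60 of 316 (19.0%), a ratio of 1.61 (1.07 to 2.45). In the thinned call this lay in G2M, with 21 (5.90%) and 44 cells (13.9%), a ratio of 2.36 (1.37 to 4.18). The S cells numbered 21 and 16, a ratio of 0.858 whose interval includes 1. Of the 42 and 60 called dendritic cells, 20 and 23 were past both limits. Unthinned, 29 of 363 and 37 of 322 dendritic cells were in S, a ratio of 1.44 (0.861 to 2.42), and 26 and 51 in G2M, a ratio of 2.21 (1.35 to 3.69). Endothelial cells had 4 of 126 and 6 of 141 called, a ratio of 1.34 (0.318 to 6.46), so no difference was detectable with so few called cells. Monocytes had 0 of 58 called in control, for which the limit of 3 counts is 5.17% and the exact interval reaches 6.16%, and 3 of 158 (1.90%) in LPCAT3-AKO.

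Lymphoid cells went the other way for the G2M members. In control 16 of 92 (17.4%) and in LPCAT3-AKO 14 of 114 (12.3%) were called, a ratio of 0.706 (0.319 to 1.54). G2M cells numbered 12 and 6, and S cells 4 and 8. Neither difference exceeded its counting interval. Lymphoid cells were also the shallowest type, with 58.0% and 52.1% of them under 3000 UMIs and left out; unthinned, 20 of 219 and 22 of 238 were called, a ratio of 1.01.

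Epithelial cells had 3 of 104 (2.88%) called in control and 62 of 243 (25.5%) in LPCAT3-AKO, a ratio of 8.85 (2.89 to 44.1). This ratio rested on the removal of doublets. That step took 73 of 181 control epithelial cells and 37 of 285 in LPCAT3-AKO, and of the removed cells with 3000 UMIs or more, 22 of 69 and 9 of 36 were called in a phase. With no doublet removal 25 of 173 and 71 of 279 were called, a log2 ratio of 0.82 in place of 3.14, and with the caller's own threshold 25 of 168 and 71 of 271, again 0.82. The removed control cells had a median of 26388 UMIs, 14908 CPM of epithelial markers and 3394 CPM summed over the 36 members, against 629 CPM in the kept ones; their fibroblast markers summed to 922 CPM, against 450 in the kept, and their macrophage markers to 466 against 189 CPM. In LPCAT3-AKO the removed cells had a median of 33988 UMIs, with fibroblast markers at 3930 CPM against 832 in the kept and macrophage markers at 1443 against 135 CPM. There the members summed to 2761 CPM in kept and 3190 in removed cells. Whether the removed cells were doublets or deep dividing cells was not tested.

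Cells called in a phase were deeper than the rest of their type. Median UMIs before thinning were 11445.5 and 14590 in S macrophages, 11729.5 and 13245 in G2M macrophages and 6913.5 and 8199 in the others. In fibroblasts the G2M cells had medians of 13936.5 and 21641 UMIs and the uncalled cells 9644.5 and 9343.5. Among cells removed as doublets, 8.07% and 10.8% were called. The part of depth and of doublets beyond the thinning was not tested.

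Turning to the genes themselves, levels are given as CPM of a type's summed UMIs, and a member counts as past the size rule when it reached 20 CPM in the higher library, differed by 1.5 times or more and had an interval excluding 1. The intervals of levels and of their ratios take each UMI as independent, although many UMIs of a member can come from 1 cell. They leave out the spread between cells, and the size rule rests on them. In macrophages 30 members reached 20 CPM and 25 of them were higher in LPCAT3-AKO and 0 lower, where 1.53% of all genes tested were higher and 0.614% lower. Of the 25, 17 were under 20 CPM in control and met the limit only through LPCAT3-AKO, which favours a difference; 11 members reached it in control, and 8 of these were higher. The 25 were all 18 G2M members that reached 20 CPM, 6 of 11 S members and Stmn1. Over all 36 members the median log2 ratio of (CPM + 1) was 1.40, with 36 of 36 above 0, and over all genes tested 0.04. The S members had a median of 0.63 and the G2M members of 1.65. With a mean over cells, in which each cell counts alike, 14 members were higher in place of 25.

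**Figure D2:**
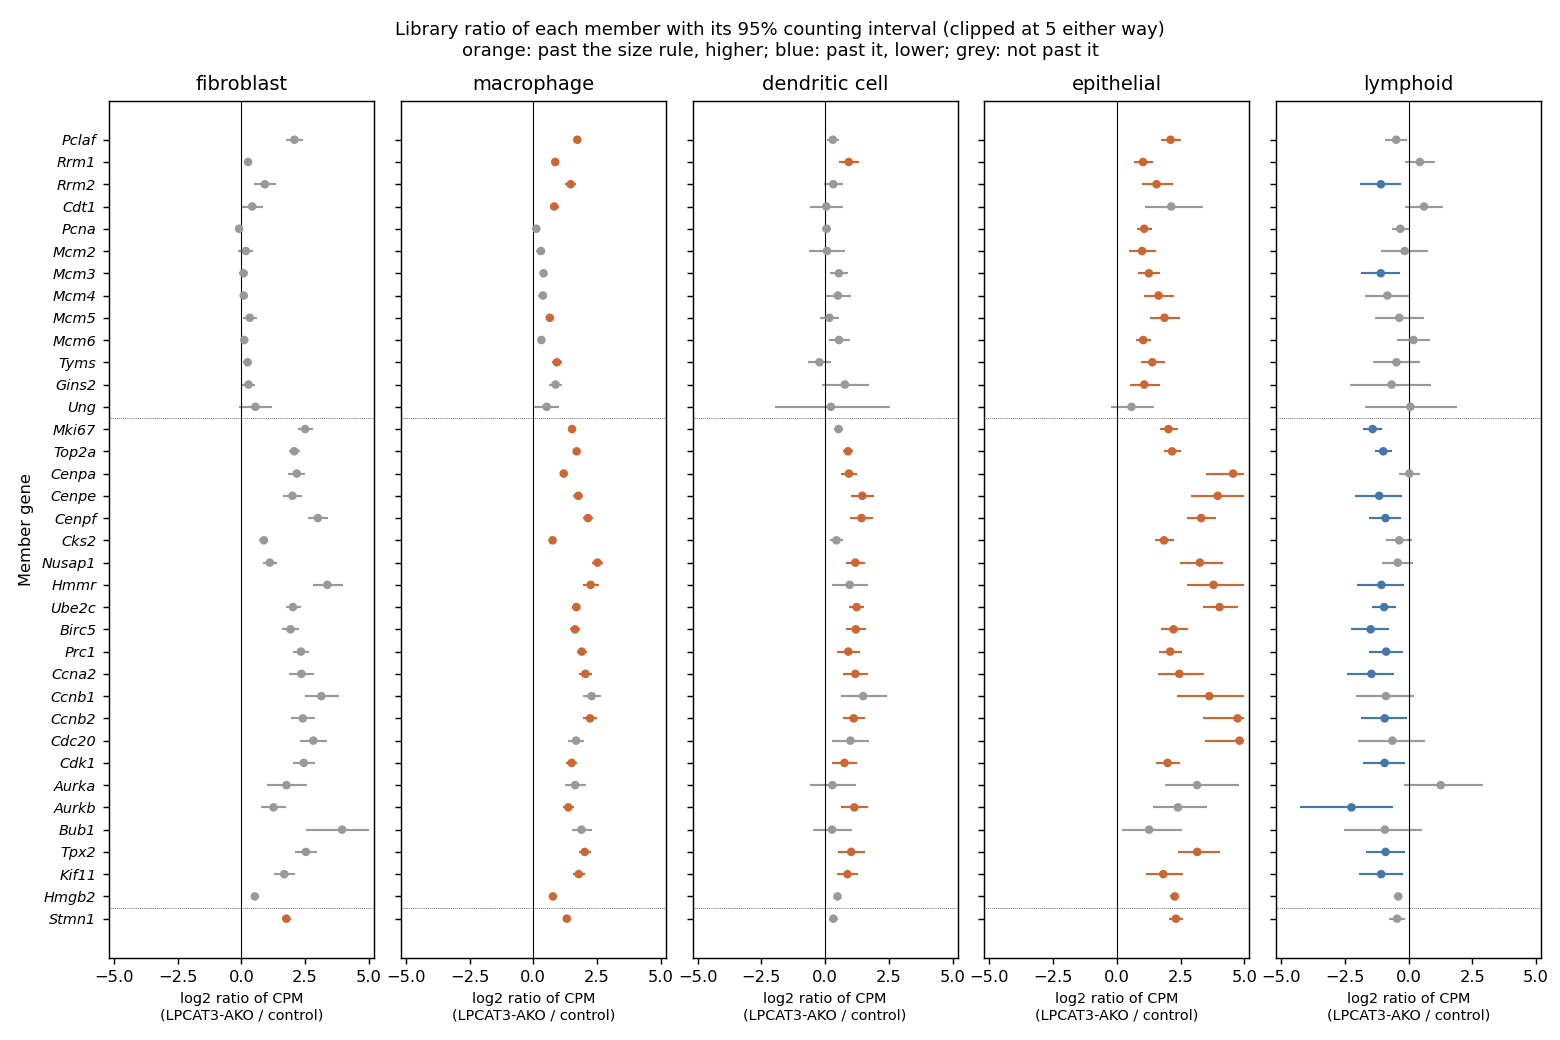
Log2 ratio of CPM, LPCAT3-AKO over control, of each member (rows; S list, G2M list and Stmn1) in 5 cell types, with 95% counting intervals clipped at 5; orange and blue points are past the size rule, higher and lower, and grey points are not. In macrophages every member lies above 0, and in lymphoid cells 6 of 36 do.

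Of the 7 replication licensing genes 2 were past the size rule. Mcm2 to Mcm6 encode subunits of the helicase that is loaded at origins, and in macrophages they stood at 18.6 and 22.9 CPM (Mcm2), 44.5 and 58.8 (Mcm3), 18.4 and 23.9 (Mcm4), 28.9 and 45.3 (Mcm5) and 38.9 and 48.5 (Mcm6). Of these Mcm5 was past it, with a ratio of 1.57. Cdt1, which loads the helicase and is destroyed once S phase starts, was the other with 15.3 and 26.9 CPM and a ratio of 1.76. Gins2, a subunit of the GINS part of the active helicase, stood at 7.38 and 13.5 CPM, below the 20 CPM limit.

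The genes of nucleotide supply were higher in macrophages of the knockout library. Rrm1, the large subunit of ribonucleotide reductase, which makes deoxynucleotides, stood at 33.0 and 59.9 CPM, a ratio of 1.82. Rrm2, the small subunit, whose amount follows S phase, stood at 9.18 and 25.4 CPM, a ratio of 2.77. Tyms, which makes thymidylate, stood at 11.2 and 21.4 CPM, a ratio of 1.90. All 3 were past the size rule.

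Among the genes of the replication fork, Pcna and its partner Pclaf had unlike ratios. Pcna, the sliding clamp of the DNA polymerases, stood at 204 (199 to 210) and 222 (216 to 228) CPM in macrophages, a ratio of 1.09, and 18.3% and 38.4% of its UMIs lay in called cells. Pclaf, which binds that clamp, stood at 19.2 and 63.5 CPM, a ratio of 3.31, the largest of any S member in macrophages, and 95% and 97.0% of its UMIs lay in called cells. Most Pcna UMIs thus lay in macrophages outside the call, and nearly all Pclaf UMIs inside it. Ung, a glycosylase that removes uracil from DNA, was near the floor at 2.33 and 3.36 CPM.

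The mitotic kinases and cyclins were higher together in macrophages. Cdk1, the kinase that drives entry into mitosis, stood at 9.64 and 27.4 CPM, and its cyclins at 7.11 and 29.4 (Ccna2), 5.62 and 26.4 (Ccnb2) and 3.33 and 16.3 CPM (Ccnb1). Ccnb1, Aurka (2.68 and 8.36 CPM) and Bub1 (2.72 and 10.1 CPM) stayed below the limit of 20 CPM. Aurka and Aurkb encode the Aurora kinases of the spindle poles and of the chromosomal passenger complex, and Bub1 a kinase of the spindle checkpoint. Aurkb was past the size rule at 10.9 and 28.3 CPM. Cks2, a small partner of the cyclin-dependent kinases, stood at 45.0 and 76.0 CPM.

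At the kinetochore, where chromosomes attach to the spindle, Cenpf stood at 9.98 and 44.3 CPM, a ratio of 4.43. Cenpe, a kinesin that moves chromosomes to the spindle equator, stood at 10.3 and 34.9 CPM, and Birc5 (survivin), of the passenger complex, at 12.6 and 39.3 CPM. Cenpa, the histone variant of the centromere, stood at 28.0 and 64.0 CPM, and 26.8% and 49.6% of its UMIs lay in called cells, a smaller part than for Top2a (85.4% and 95%).

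The spindle genes held the largest ratio. Nusap1, which bundles spindle microtubules, stood at 7.19 (6.20 to 8.29) and 41.2 (38.7 to 43.8) CPM in macrophages, a ratio of 5.73 (4.90 to 6.73). Called cells held 94.0% and 97.9% of its UMIs. Prc1, which crosslinks the central spindle, stood at 10.6 and 39.5 CPM, Tpx2, an activator of Aurora A, at 7.38 and 29.9 CPM, and the kinesin Kif11, which pushes spindle poles apart, at 7.30 and 25.2 CPM. Hmmr, a spindle assembly factor, stood at 4.21 and 20.04 CPM. Stmn1, which destabilises microtubules, stood at 77.1 and 192 CPM, a ratio of 2.49.

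The exit from mitosis is run by the anaphase-promoting complex. Cdc20, its activator, stood at 4.13 and 13.2 CPM, below the limit, and Ube2c, its ubiquitin-conjugating enzyme, at 17.7 and 57.2 CPM, past the size rule. The chromatin genes of the G2M list were past it too. Mki67, which coats mitotic chromosomes, stood at 45.7 (43.1 to 48.3) and 131 (127 to 136) CPM, a ratio of 2.87 (2.68 to 3.07), and Top2a, the topoisomerase that untangles sister chromatids, at 42.9 (40.4 to 45.5) and 139.6 (135 to 144) CPM, a ratio of 3.25. Hmgb2, a DNA-bending protein, stood at 177 and 303 CPM, a ratio of 1.71. Of the Mki67 UMIs, 70.2% and 89.4% came from called macrophages, and the single cell with the most gave 5.70% and 1.63%.

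**Figure D3:**
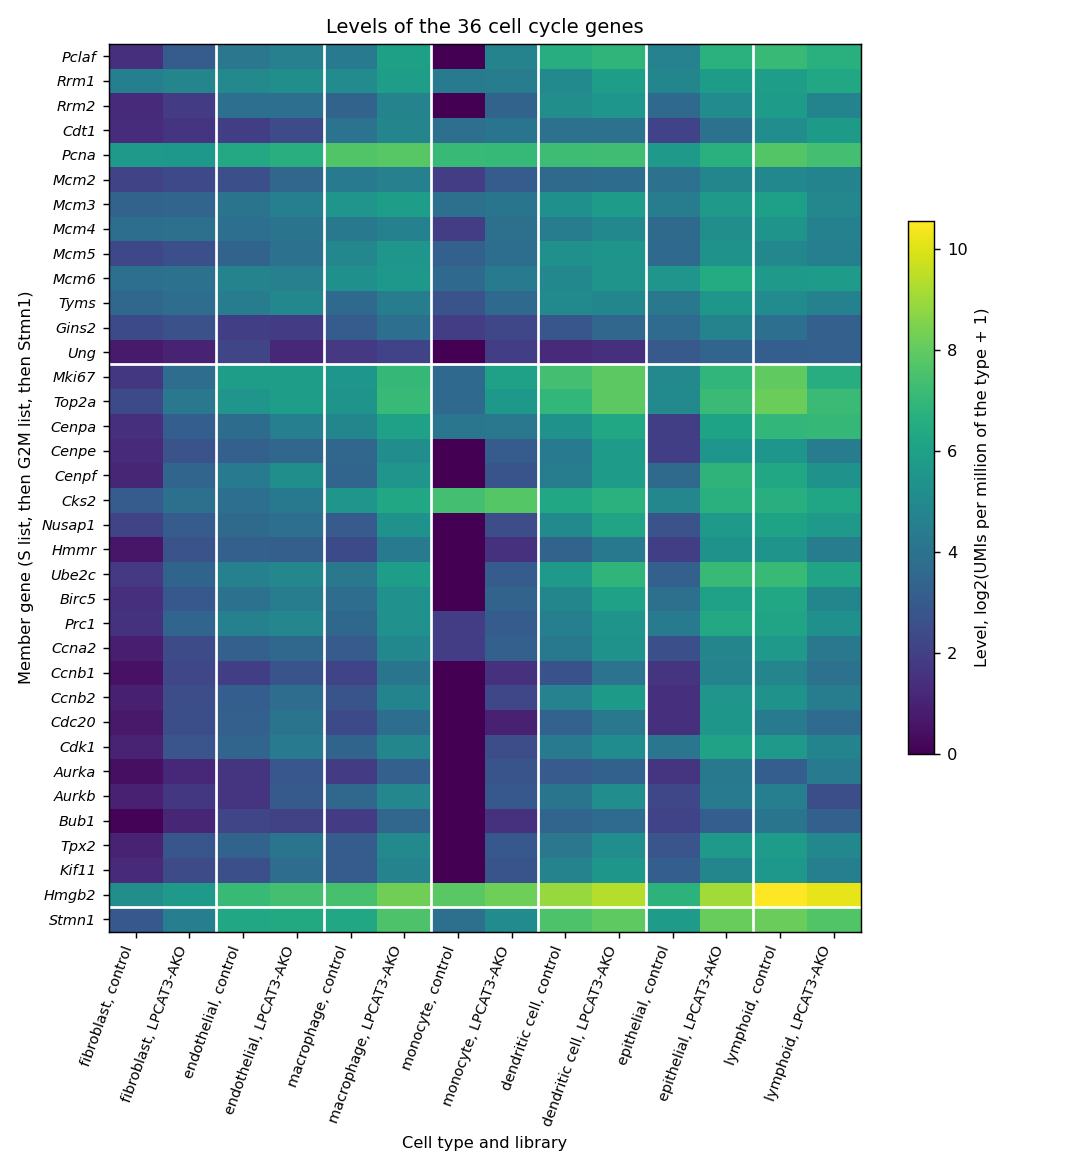
Level of each member (rows) in the 7 cell types of both libraries (columns), as log2(CPM + 1) by colour, with 0 at the darkest end of the scale. In control the lymphoid column is highest for 34 of 36 members, and the control monocyte column is at 0 for many mitotic members but high for Cks2.

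The order of the types differed between the libraries. In control, lymphoid cells had the highest level of 34 of 36 members; in LPCAT3-AKO epithelial cells had the highest of 15, dendritic cells of 12, lymphoid cells of 5, macrophages of 3 and monocytes of 1. Fibroblasts were lowest for 11 members in control and 24 in LPCAT3-AKO, and monocytes for 24 and 11. The rank of monocytes rests on 65 and 167 cells, in which many members had few or 0 UMIs. In the 58 control monocytes with 3000 UMIs or more, Nusap1 had 0 UMIs, with an interval up to 10.7 CPM. Control fibroblasts stood at 3.44 CPM for it, below that bound, so which of these types is lowest cannot be told for such members. Summed over the 36 members the control levels ran from 216 CPM in fibroblasts through 629 in epithelial cells, 678 in monocytes, 757 in endothelial cells, 1001 in macrophages and 1927 in dendritic cells to 4185 in lymphoid cells. In LPCAT3-AKO they ran from 372 in fibroblasts through 962 in endothelial cells, 1062 in monocytes, 2031 in macrophages, 2761 in epithelial cells and 2853 in lymphoid cells to 2919 in dendritic cells. In control, epithelial cells, monocytes and endothelial cells lay between 629 and 757 CPM, and in LPCAT3-AKO epithelial, lymphoid and dendritic cells between 2761 and 2919 CPM; with 1 library each, the spread between animals is not known for any of these neighbours. The place of the epithelial cells depended on the doublet step: with no doublet removed they summed to 2074 CPM in control, next to 1935 CPM in dendritic cells, and to 2826 CPM in LPCAT3-AKO. Then lymphoid cells were highest for 25 members in control and epithelial cells for 8.

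Cks2 did not follow the others. Of the 7 gated types monocytes had its highest level in both libraries, 170 (130 to 219) and 215 (188 to 245) CPM, although 0% and 3.52% of these UMIs lay in called cells. The same monocytes stood at 11.2 (3.04 to 28.6) and 64.8 (50.4 to 81.9) CPM for Mki67. Nusap1 had 0 UMIs in control, for which the limit of 3 counts, not the interval bound, is 8.37 CPM, and 4.69 CPM in LPCAT3-AKO. Hmgb2, another G2M member with UMIs in many uncalled cells, stood at 229 and 301 CPM in monocytes, and the unresolved myeloid cells held Cks2 at 190 and 180 CPM.

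In fibroblasts the levels were low and 4 members reached 20 CPM; Stmn1 was the 1 past the size rule, at 6.48 and 21.9 CPM, a ratio of 3.39 (3.0 to 3.83), and 0 were lower, where 1.38% of all genes tested were higher and 0.758% lower. It was under 20 CPM in control and met the limit only through LPCAT3-AKO. With the limit at 5 CPM 15 members were higher, and with a mean over cells 0. The 36 members had a median log2 ratio of 1.10, with 35 of 36 above 0, and all genes tested a median of 0.00. This came from the mitotic members. The S members had a median of 0.23 and a summed level of 137 and 153 CPM, the G2M members a median of 1.62 and a summed level of 72.1 and 197 CPM. Examples below 20 CPM were Mki67 at 2.27 and 12.9 CPM, Top2a at 4.17 and 17.5, Cenpf at 1.22 and 9.77 and Hmmr at 0.535 and 5.53 CPM. Pcna stood at 51.5 and 48.4 CPM, a ratio of 0.938. A few cells carried much of this RNA: 70.1% and 85.6% of the Mki67 UMIs of fibroblasts came from the 16 and 51 called cells.

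In dendritic cells 27 members reached 20 CPM, of which 15 were higher in LPCAT3-AKO and 0 lower, where 4.37% of all genes tested were higher and 1.72% lower. Of the 15, 10 reached 20 CPM in control as well. They were 14 G2M members and Rrm1, which stood at 30.9 and 58.7 CPM. Top2a stood at 128 and 238 CPM, a ratio of 1.86 (1.64 to 2.12), Ube2c at 50.7 and 120, and Cenpe at 19.5 and 53.7 CPM, a ratio of 2.75. Mki67 (166 and 240 CPM, a ratio of 1.44) and Hmgb2 (480 and 672 CPM) did not pass, nor did Pcna at 152 and 158 CPM. With a ratio of 2 as the limit 9 members were higher.

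In endothelial cells 15 members reached 20 CPM, and Cenpf (19.2 and 36.8 CPM) and Cenpa (12.1 and 22.2 CPM) were higher and 0 lower, where 3.51% of all genes tested were higher and 1.78% lower. Both were under 20 CPM in control, so they met the level limit only through LPCAT3-AKO. Neither passed at a ratio of 2. Mki67 stood at 56.9 and 58.4 CPM there, a ratio of 1.03 (0.752 to 1.40).

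In epithelial cells all 31 members that reached 20 CPM were higher in LPCAT3-AKO and 0 lower, where 8.13% of all genes tested were higher and 8.06% lower. Ccnb2 stood at 1.67 and 44.3 CPM, Cdc20 at 1.67 and 46.7 CPM (a ratio of 28.1, 10.9 to 104, on 4 control UMIs), Ube2c at 8.33 and 136, Stmn1 at 55.0 and 274 and Pcna at 49.1 and 103 CPM. Of the 31, 10 reached 20 CPM in control as well. As with the shares, the count depended on the doublet step: 11 members were higher with no removal and 10 with the caller's own threshold. In control 1 kept cell gave 43.8% of the Mki67 UMIs. Immediate-early genes, which respond within minutes to stress and to tissue digestion, were higher too, 7 of 8 with a summed level of 4135 and 9317 CPM; their part in the difference was not tested.

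In lymphoid cells 31 members reached 20 CPM, of which 16 were lower in LPCAT3-AKO and 0 higher, where 4.9% of all genes tested were lower and 3.35% higher. They were 14 G2M members, Mcm3 and Rrm2, and 14 of the 16 reached 20 CPM in LPCAT3-AKO as well. Mki67 stood at 254 (220 to 293) and 95.5 (75.7 to 119) CPM, a ratio of 0.375 (0.285 to 0.490), Top2a at 293 and 147, a ratio of 0.501, Birc5 at 77.3 and 27.5, and Aurkb at 22.7 and 4.77 CPM on 17 and 4 UMIs. Counted over cells, the ratio of the G2M share had an interval of 0.124 to 1.16, which includes 1. Cenpa stood at 127 and 129 CPM, and Rrm1 stood at 57.3 and 77.6 CPM, a ratio of 1.35 (0.907 to 2.04). The median log2 ratio was -0.83 over the 36 members, with 6 above 0, and -0.03 over all genes tested. Among the lymphoid cells deep enough to be called, 86.1% and 65.6% of the UMIs of G2M members lay in the 12 and 6 G2M cells and 10.8% and 22.4% in uncalled cells. Of all lymphoid cells 1 cell gave 13.6% and 22.5% of the Mki67 UMIs, and with a mean over cells 9 members were lower. Among the cells with at least 3000 UMIs, NK cells had 10 of 38 and 4 of 34 called and T cells 5 of 53 and 10 of 77.

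Other genes of the cycle, from lists that hold none of the 36, stood as follows, with the share of all genes tested that went the same way beside each type. In macrophages, where that share was 1.53%, 12 of 21 further G2M genes at 20 CPM were higher in LPCAT3-AKO and 0 lower, among them Smc4, a condensin subunit (68.6 and 114 CPM), Tmpo, a nuclear lamina protein (56.6 and 87.3), and the kinesin Kif23 (19.1 and 55.9). Of the further S genes 3 of 11 were higher, Atad2 (38.4 and 62.7 CPM), Gmnn, which blocks Cdt1 (14.5 and 29.5), and Uhrf1, which guides maintenance methylation (9.02 and 22.6). The chromatin genes of replication had 3 higher, Dnmt1 (33.0 and 50.4 CPM), Ezh2 (23.2 and 40.0) and Dut (12.8 and 21.3). Of the genes named, Kif23, Gmnn, Uhrf1 and Dut were under 20 CPM in control and met the limit only through LPCAT3-AKO, which favours a difference. The G1 cyclins, their kinases and the E2F factors had 0 of 6 past the size rule in either direction, with Ccnd3 at 75.4 and 77.6 and Cdk4 at 38.7 and 45.5 CPM. The macrophage growth factors and receptors also had 0 of 6, with Csf1r, the receptor for the growth factor CSF1, at 934 and 999.6 CPM, and the 8 immediate-early genes had 0. In dendritic cells (4.37%) 10 of 21 further G2M and 3 of 12 further S genes were higher, in epithelial cells (8.13%) 12 of 19 and 11 of 16, and in fibroblasts (1.38%) 0 of either. In lymphoid cells (4.9%) 5 of 20 and 5 of 18 were lower and 0 higher, such as Clspn, a replication checkpoint mediator (46.6 and 10.7 CPM). Clspn met the limit of 20 CPM only through control. In every type the limit was applied to the higher library, for these lists and for all genes tested alike, so the counts carry this selection.

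**Figure D4:**
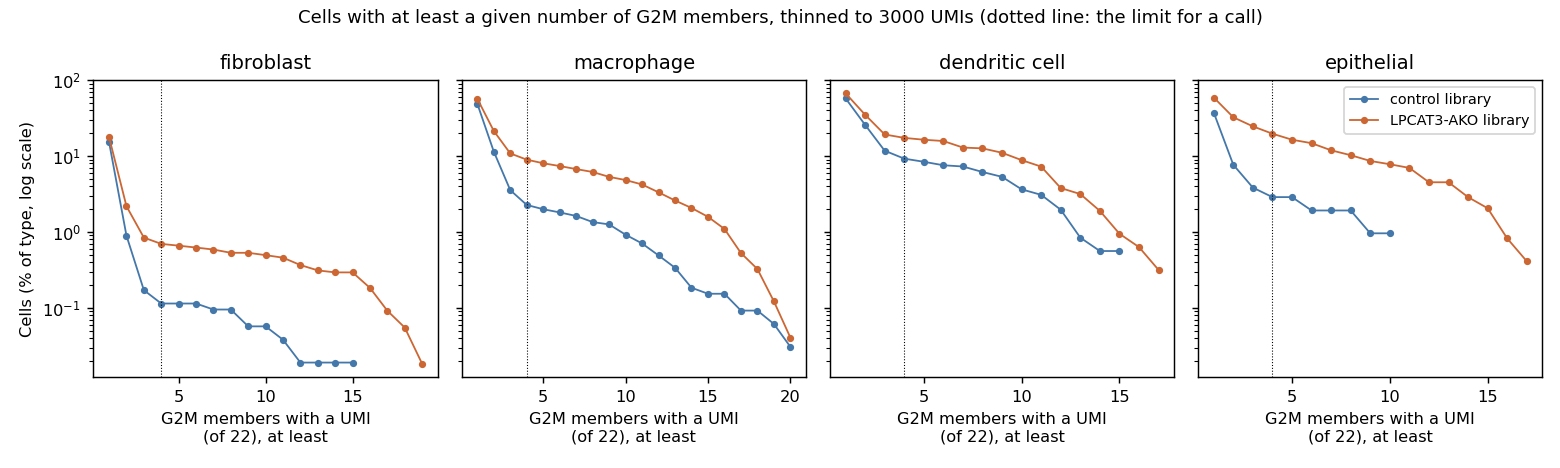
Percent of cells (log axis) in which at least a given number of the 22 G2M members had a UMI after thinning to 3000 UMIs, in 4 cell types of both libraries; the dotted line is the limit of 4 members. The LPCAT3-AKO line lies above the control line in each panel, and in fibroblasts the cell with the most had 15 members in control and 19 in LPCAT3-AKO.

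Outside the called cells the libraries lay closer. Macrophages called in neither phase summed to 325 and 315 CPM over the S members and 234 and 277 CPM over the G2M members, and fibroblasts in neither to 129 and 124 CPM and 55.4 and 64.8 CPM. Over all macrophages the same sums were 451 and 635 CPM for S and 472 and 1204 CPM for G2M. The difference between the libraries in these types thus lay mostly in the cells the members had called, a split that was made with the same genes and is given as a description.

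The 36 members set the call, so what the called macrophages share is read from other genes. Where 15.6% (control) and 15.4% (LPCAT3-AKO) of all genes tested were higher in called than in uncalled macrophages, 28 of 28 and 29 of 29 further S genes at 20 CPM and 31 of 31 and 32 of 32 further G2M genes were. A gene could meet the limit of 20 CPM through the called cells alone, which favours a difference. Ccne2, for example, stood at 34.4 CPM in S and 0.605 CPM in uncalled control macrophages. These genes mark the same phases as the members that set the call, so the counts describe the called cells and do not check the call. In control macrophages Ccne1, the cyclin of the G1 to S step, stood at 29.6 CPM in S cells, 8.21 in G2M cells and 2.85 in the others, and E2f1, an activator of replication genes, at 80.1, 29.6 and 18.4 CPM. Foxm1, a mitotic transcription factor, stood at 19.2, 65.7 and 1.94 CPM in the same order, and at 31.9, 75.6 and 2.49 CPM in LPCAT3-AKO. Not every regulator was ordered in this way: Mybl2, which encodes B-MYB, stood at 20.8, 9.85 and 0.518 CPM in control, and E2f8, an E2F repressor of the further S list, at 23.2, 39.4 and 0.734 CPM. Summed over the whole lists, the 33 further S genes stood at 2137 CPM in S, 1343 in G2M and 415 in uncalled control macrophages and at 2787, 1575 and 418 CPM in LPCAT3-AKO, and the 35 further G2M genes at 2123, 4885 and 881 CPM and at 2780, 5729 and 869 CPM. Of the macrophage growth factors and receptors 4 of 6 were lower in called cells in each library and 0 higher, where 12.7% (control) and 10.0% (LPCAT3-AKO) of all genes tested were lower. Csf1r stood at 719 CPM in S, 346 in G2M and 966 in uncalled control macrophages, and at 626, 661 and 1076 CPM in LPCAT3-AKO. The macrophage markers as a list summed to 14042 CPM in called and 24429 CPM in uncalled control cells, and to 15375 and 25177 CPM in LPCAT3-AKO.

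Within the called macrophages 19 of the 35 members that reached 20 CPM were higher in LPCAT3-AKO and 0 lower, where 6.89% of all genes tested were higher and 2.61% lower. They were 18 G2M members and Gins2. The S members had a median log2 ratio of -0.05 and the G2M members of 0.81. Mki67 stood at 435 and 682 CPM in these cells and Nusap1 at 93.1 and 235 CPM, while Pcna stood at 503 and 486 and Mcm5 at 197 and 176 CPM. The share of G2M cells among them differed as given above, and the members that differ are those that define it.

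The macrophages were then divided by Lyve1 and Folr2, markers of resident tissue macrophages. In cells with 3 or more UMIs of the pair, 69 of 2556 (2.70%) and 140 of 1860 (7.53%) were called in S or G2M, a ratio of 2.79 (2.08 to 3.78), and 7 and 66 in G2M, a ratio of 13 (5.95 to 33.5), or 6.71 (4.33 to 10.8) without thinning. With 1 or 2 UMIs 17 of 297 and 59 of 283 were called, a ratio of 3.64 (2.09 to 6.67), and with 0 UMIs 70 of 401 (17.5%) and 86 of 315 (27.3%), a ratio of 1.56 (1.13 to 2.18). The share was thus higher in LPCAT3-AKO in each of the 3 states, and higher in cells without the pair in both libraries. Of the G2M macrophages 15.2% (6.34 to 28.9) held 3 or more UMIs in control and 44% (35.9 to 52.3) in LPCAT3-AKO, whereas among S macrophages it was 56.4% and 54.8% and among uncalled ones 80.3% and 79.2%. Lyve1 levels followed this order in both libraries and Folr2 levels in control, while in LPCAT3-AKO Folr2 was alike in S and G2M macrophages. In control Lyve1 stood at 1033 CPM in S, 186 in G2M and 2039 in uncalled macrophages and Folr2 at 756, 161 and 1390 CPM; in LPCAT3-AKO Lyve1 stood at 963, 413 and 1737 and Folr2 at 799, 796 and 1481 CPM. Both genes are also markers of the gate.

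**Figure D5:**
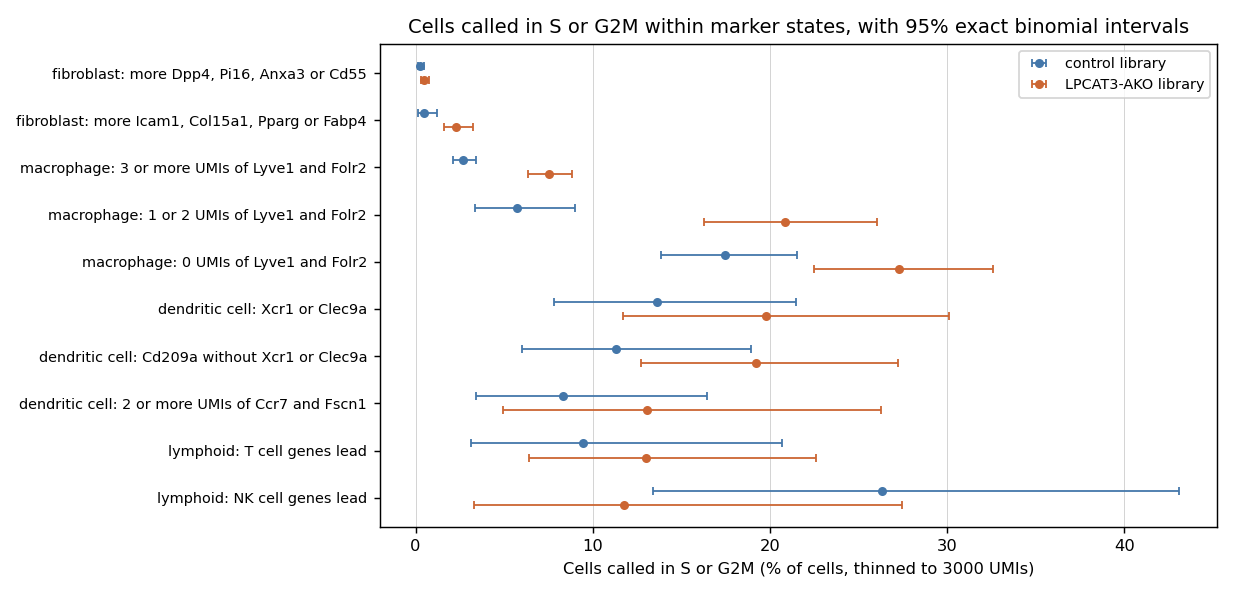
Percent of cells called in S or G2M within marker states of each type, control and LPCAT3-AKO side by side, with exact binomial 95% intervals. All 3 Lyve1 and Folr2 states of macrophages are higher in LPCAT3-AKO, and in fibroblasts the state with more Icam1, Col15a1, Pparg or Fabp4 reaches 2.30%.

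The gate left 299 and 388 myeloid cells unresolved between macrophage, monocyte and dendritic cell. Of those deep enough, 56 of 284 (19.7%) and 57 of 361 (15.8%) were called in S or G2M, a ratio of 0.801 (0.544 to 1.18). Counted as macrophages, they gave 212 of 3538 and 342 of 2819, a log2 ratio of 1.02. They were 17.4% of all called cells in control and 10.1% in LPCAT3-AKO.

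Fibroblasts were divided by the marker genes of interstitial progenitors (Dpp4 side) and of cells committed to the fat lineage (Icam1, Col15a1, Pparg and Fabp4). On the Dpp4 side 11 of 4300 and 19 of 3934 were called, a ratio of 1.89 (0.854 to 4.39), and on the other side 4 of 859 and 32 of 1390 (2.30%), a ratio of 4.94 (1.75 to 19.2). The intervals of the ratios overlap, and the difference between the sides was not tested. Of the 33 G2M fibroblasts of LPCAT3-AKO 60.6% (42.1 to 77.1) lay on the committed side, against 25.2% of its uncalled fibroblasts and 16.3% of those of control. Fabp4 stood at 2958, Pparg at 31.8 and Icam1 at 71.9 CPM in these 33 cells. Uncalled control fibroblasts held them at 549, 6.01 and 86.8 CPM, so Icam1 was not higher in the 33 cells than there. Fabp4 and Pparg are not particular to fibroblasts, at 32346 and 207 CPM in uncalled endothelial cells of LPCAT3-AKO. The median doublet score was 0.065 in its G2M fibroblasts and 0.025 in its uncalled ones. The part of mixed droplets in the sides was not tested. Col15a1, a basement membrane collagen, was itself higher in all fibroblasts of that library, at 142 and 291 CPM. With both sides weighted alike the log2 ratio was 1.43.

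Among dendritic cells the type that expresses Cd209a had 12 of 106 and 24 of 125 called, with 6 and 19 in G2M, a ratio of 2.69 (1.03 to 8.22). The Xcr1 and Clec9a type, which cross-presents antigen, had 15 of 110 and 16 of 81, and migratory cells with Ccr7 or Fscn1 had 7 of 84 and 6 of 46. The intervals of these small groups overlap.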

How the data were processed

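Single cells of the SVF were measured in 1 control and 1 LPCAT3-AKO library. The authors deposited UMI counts per gene and barcode, not normalized, per the file headers; Cell Ranger 6.1.2, Seurat 4.10 and the build mm10 are named in the submitters' processing notes, and the annotation release is not given in the sources used here.

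Barcodes with 500 or more genes and at most 10% mitochondrial UMIs were kept, and per library the cells with the highest Scrublet scores (scanpy 1.11.5), 0.8% per 1000 cells, were removed as doublets. A cell's type was its top scaled marker score, with a second score under 60% of it and 3 or more markers detected; this rule was set after the data were seen. Phase calls used cells thinned to 3000 UMIs. Counts were summed per type and library and given as CPM, with exact binomial 95% intervals for shares and ratios and exact Poisson intervals for levels. The intervals of levels and of their ratios take each UMI as independent. The log2 ratios used a pseudocount of 1 CPM. For a count of 0, the limit given is that of 3 counts, not the upper bound of the interval. No sample was left out.

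The 36 members and the lists were chosen with earlier results of these data known. Every member may be named; in full are given those with the most UMIs in each role, and of each other list up to 4 genes by level among those past the size rule. In sentences that name G1 genes, growth factor receptors, single lymphoid genes or genes by phase, the examples were chosen after their values were seen. Alternatives changed the member limit, thinning, doublet step, gate, mitochondrial limit, size rule, weighting of cells and the phase genes.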

Additional observations from a re-analysis of the deposited data

Results flagged for a closer look

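The median log2 ratio of the G2M members, LPCAT3-AKO over control, was -0.90 in lymphoid cells, against 1.65 in macrophages, 0.92 in dendritic cells and 2.46 in epithelial cells. It was marked because the types went in opposite directions under the same contrast; with 1 library per genotype the difference between the types was not tested. In lymphoid cells 12 and 6 cells were called in G2M, and the epithelial value depends on the doublet step described above.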

How the results depend on the processing

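The log2 ratio of the share in S or G2M stayed above 0 in all 14 alternatives for macrophages (0.076 to 1.76), all 13 for fibroblasts (0.030 to 2.10) and all 12 each for dendritic (0.20 to 0.92), endothelial (0.056 to 0.79) and epithelial cells (0.65 to 3.39); for lymphoid cells it was above 0 in 4 of 12 (-1.01 to 0.32). The cause of each shift below was not tested. For macrophages (1.27) it was 0.85 with 3 members, 1.76 with 6, 1.69 and 0.88 after thinning to 2000 and 5000 UMIs, 0.26 from the further phase genes and 0.076 from scanpy's scores. For fibroblasts (1.62) it was 0.65 with 3 members, 0.32 without thinning, 0.030 from the further genes and 0.13 from scanpy's scores. For epithelial cells (3.14) it was 1.19 without thinning, 0.65 from the further genes, and 0.82 both without doublet removal and with Scrublet's own calls, an alternative chosen after seeing the data, as were those for unresolved myeloid cells and for weighting states alike. The sign turned for the G2M share of fibroblasts from the further genes (-5.4e-05) and the S share of macrophages from scanpy's scores (-0.086). Of the shares whose interval already included a ratio of 1, the sign varied too: the S share was above 0 in 10 of 12 alternatives in fibroblasts (-0.16 to 0.95), 10 of 12 in lymphoid (-0.074 to 1.35) and 5 of 12 in dendritic cells (-0.62 to 0.63), and the G2M share in 10 of 12 in endothelial (-0.27 to 1.37) and 2 of 12 in lymphoid cells (-2.22 to 0.15).

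Members higher in fibroblasts numbered 15 at 5 CPM, 0 by the mean over cells, 2 without doublet removal, and 18 with 4 lower within called cells, in place of 1 and 0. In macrophages the mean over cells gave 14 for 25. Dendritic cells gave 9 for 15 at a ratio of 2, and 4 higher with 3 lower within called cells. Endothelial cells gave 4 at 5 CPM, by the mean over cells and without doublet removal, and 0 at a ratio of 2, for 2. Epithelial cells gave 11 without doublet removal and 10 with Scrublet's own calls, for 31. Lymphoid cells gave 9 lower for 16 at a ratio of 2 and by the mean over cells, which also gave 1 higher. Within called cells the log2 ratio turned to -0.94 for Mcm2, -0.70 for Mcm5 and -0.71 for Mcm6 in fibroblasts, -0.16 for Mcm5 in macrophages, -0.87 for Cdt1 and -0.60 for Pcna in dendritic cells, and -0.97 for Cenpa in lymphoid cells. No paired analysis was possible because each group has 1 library. Depth limits lymphoid cells, over 50% of which fell under 3000 UMIs, and members below 20 CPM.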
